A study of Mus musculus with 3 samples.

Results

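The acute-phase secreted proteins described here are 6 genes, Serpina3n, Lbp, Lcn2, Saa3, Hp and Orm1, of 19938 named genes read on the arrays. They were chosen by name as acute-phase genes, with their log2 levels in the 3 arrays and the differences between them already known, so those values are a description and no test is made on them. RNA came from FSP1-positive fibroblasts of the mouse forestomach (FSP1 is encoded by S100a4), grown in medium with 10% fetal bovine serum and harvested at passages 4 to 6, and each line was read on 1 Mouse Gene 1.0 ST array from Affymetrix. The TGFBR2/SMAD4 cKO line carried labelled conditional knockouts of the TGF-beta type II receptor gene Tgfbr2 and of Smad4, the gene of the common SMAD partner in TGF-beta and BMP signalling, and came from normal forestomach. The TGFBR2cKO line carried the labelled conditional knockout of the receptor gene alone and came from a forestomach squamous cell carcinoma. The wt line was the control and came from normal forestomach. The mice of all 3 lines were of mixed C57BL6 and BALBc background and of either sex. The labels name no Cre driver and no age or number of animals, and do not say whether a culture pooled animals or was a clone. Since there is a single array for each culture, called a line here, differences lack any replicate check and no p-value can be given.

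The acute phase is the body's early response to injury and infection, in which the liver, driven by interleukin 6, interleukin 1 and glucocorticoids through STAT3, C/EBP and NF-kappaB factors, changes its output of plasma proteins. Several of these genes are also used outside the liver, in fibroblasts, adipocytes, macrophages and epithelia. Serpina3n encodes a secreted serine protease inhibitor, Lbp the lipopolysaccharide-binding protein that passes bacterial lipopolysaccharide to CD14 and the TLR4 complex, Lcn2 the lipocalin that captures bacterial iron carriers, Saa3 a serum amyloid A made largely outside the liver, Hp haptoglobin, which binds free haemoglobin, and Orm1 the plasma glycoprotein orosomucoid.

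Promoter sequence was at hand for 3 of the 6 genes, and the 250 bases before each start are shown because these genes share classes of regulator but did not share a pattern of level. The windows are from RefSeq on build GRCm38.p6: Serpina3n at chr12:104406458-104406707 on the + strand, Lcn2 at chr2:32387740-32387989 on the - strand and Saa3 at chr7:46715677-46715926 on the - strand. Capitals mark matches on either strand to any of 5 motifs: TTNNGNAA for C/EBP factors, TTCNNNGAA for STAT factors, GGGNNNNNCC for NF-kappaB, ACANNNTGT for the glucocorticoid receptor and GTCTAGAC for SMAD proteins.
Serpina3n: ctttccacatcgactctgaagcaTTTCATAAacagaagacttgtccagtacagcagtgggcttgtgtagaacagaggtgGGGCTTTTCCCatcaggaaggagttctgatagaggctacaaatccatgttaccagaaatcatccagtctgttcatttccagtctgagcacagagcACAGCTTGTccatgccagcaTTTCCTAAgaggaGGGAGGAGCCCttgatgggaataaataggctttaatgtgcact
Lcn2: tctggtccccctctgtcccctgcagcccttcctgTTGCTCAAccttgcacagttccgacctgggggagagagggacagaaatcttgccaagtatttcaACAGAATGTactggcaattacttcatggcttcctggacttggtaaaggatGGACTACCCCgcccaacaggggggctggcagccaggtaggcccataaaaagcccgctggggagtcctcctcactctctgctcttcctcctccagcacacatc
Saa3: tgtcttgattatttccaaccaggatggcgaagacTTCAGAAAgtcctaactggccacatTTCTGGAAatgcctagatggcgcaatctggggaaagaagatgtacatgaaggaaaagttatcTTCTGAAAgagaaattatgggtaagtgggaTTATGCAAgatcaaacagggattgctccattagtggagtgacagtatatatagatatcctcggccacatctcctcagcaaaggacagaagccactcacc

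The Serpina3n window held 2 matches to the C/EBP motif, beginning at -227 and -56 counted from the start of the gene. It also held 4 overlapping matches to the NF-kappaB motif at 2 places, beginning at -171 and -43, and 1 match to the glucocorticoid receptor motif at -76. The Lcn2 window held 1 match to each of these 3 motifs, at -216, -102 and -152 for C/EBP, NF-kappaB and the glucocorticoid receptor. The Saa3 window held 4 C/EBP matches, at -216, -191, -129 and -99, and no match to the other motifs. No window matched the STAT or SMAD motif, which says only that these letters are not in these bases. Of 27025 genes with a window of the same length, 36.9% held the C/EBP motif, 45.4% the NF-kappaB motif, 7.18% the STAT motif, 5.91% the glucocorticoid receptor motif and 0.174% the SMAD palindrome. Serpina3n, whose level differed widely between lines, and Lcn2, which was dim and equal in the 3 arrays, both held matches to the same 3 motifs. A small difference in a dim gene could not be seen here, and whether the matches are used was not tested.

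Levels are log2 signals as deposited, so that a difference of 1 is 2-fold, and a gene's level is not compared with another gene's. The 6 genes parted into 2 that varied and 4 that were dim and differed by at most 0.13 between arrays. Serpina3n had a log2 signal of 11.80 in the TGFBR2/SMAD4 cKO array, 8.66 in the TGFBR2cKO array and 8.98 in the wt array. Lbp had a log2 signal of 9.72 in the TGFBR2/SMAD4 cKO array, 7.46 in the TGFBR2cKO array and 7.65 in the wt array. For both genes the TGFBR2/SMAD4 cKO array was far above the other two, and the order was TGFBR2/SMAD4 cKO, then wt, then TGFBR2cKO.

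**Figure D1:**
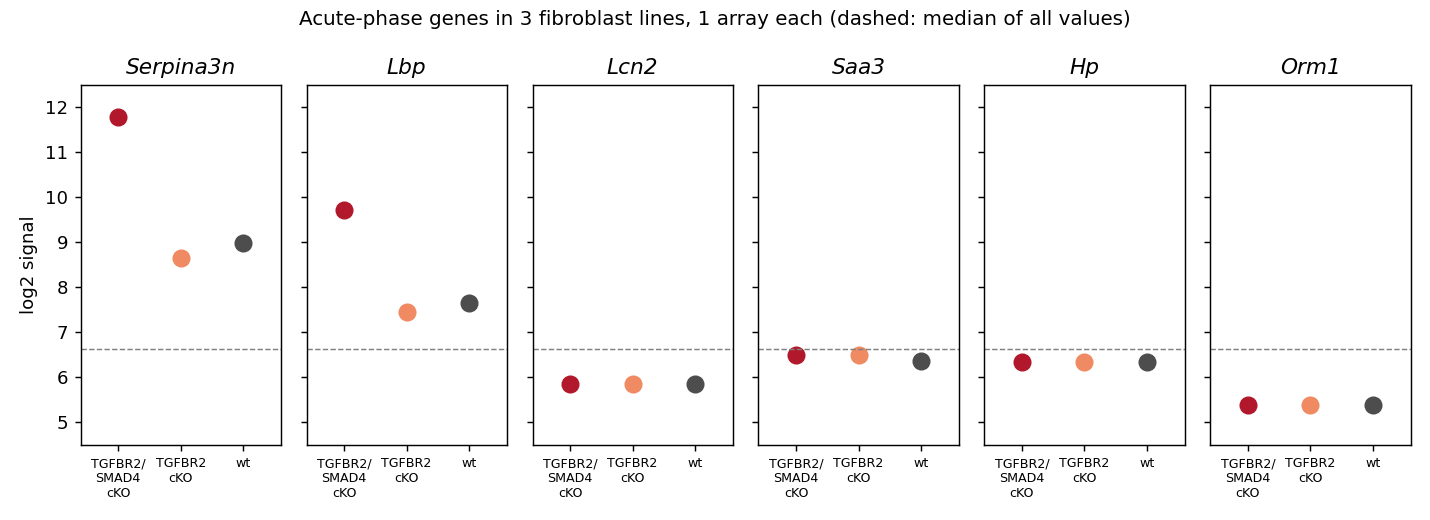
Log2 signal of the 6 acute-phase genes in the TGFBR2/SMAD4 cKO, TGFBR2cKO and wt arrays, 1 point per array, with the median of all values, 6.63, as a dashed line. Serpina3n and Lbp stand at 11.80 and 9.72 in the TGFBR2/SMAD4 cKO array, and the other 4 genes lie below the line in every array.

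Saa3 had a log2 signal of 6.50 in the TGFBR2/SMAD4 cKO array, 6.50 in the TGFBR2cKO array and 6.36 in the wt array, a difference of 0.13 from wt in both knockout arrays. Hp had 6.34, Lcn2 5.85 and Orm1 5.39, each the same in the TGFBR2/SMAD4 cKO, TGFBR2cKO and wt arrays. All of these lie under 6.63, the median of all values, which a gene had to reach in at least 1 array to be counted as at or above the level filter. Serpina3n and Lbp were therefore the 2 of 6 that passed it. Lbp and Serpina3n passed by way of all 3 arrays, not by the TGFBR2/SMAD4 cKO array alone. Equal values are common in the deposited table: among genes under the filter 70.0% had exactly equal values in all 3 arrays, against 3 of the 4 dim acute-phase genes, and among genes at or above it 32.7% did. Each gene was read by 1 probe set, the table has no detection call, and a small difference in a dim gene could not be seen here.

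In TGFBR2/SMAD4 cKO minus wt, the log2 difference of Serpina3n was 2.82, which is 7.06-fold, and that of Lbp was 2.07, which is 4.20-fold. Ranked among all 11808 genes at or above the filter, these were the 8th and the 23rd largest positive differences. Both passed 2-fold upwards, as did 1.22% of those genes, while 2.18% were at least 2-fold lower. Because this contrast was in view when the genes were chosen, nothing is read from that count. Over all genes at or above the filter the median difference was 0, and the central 95% ran from -0.92 to 0.69.

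In TGFBR2/SMAD4 cKO minus TGFBR2cKO, Serpina3n was higher by 3.14, or 8.81-fold, and Lbp by 2.26, or 4.80-fold, the 6th and the 21st largest positive differences. Of all genes at or above the filter, 1.32% passed 2-fold upwards and 2.25% downwards. This contrast shares its TGFBR2/SMAD4 cKO array with the one before, so the values are not a further measurement of that line.

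In TGFBR2cKO minus wt, the 2 genes lay on the other side of 0, Serpina3n at -0.32 and Lbp at -0.19, neither reaching 2-fold. In that contrast 0.0254% of genes passed 2-fold upwards and 0.00847% downwards, and the central 95% of differences ran from -0.19 to 0.20. Serpina3n had the 97th and Lbp the 282nd most negative difference of 11808. Whether differences of this size exceed the spread between cultures cannot be said with 1 array per line.

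**Figure D2:**
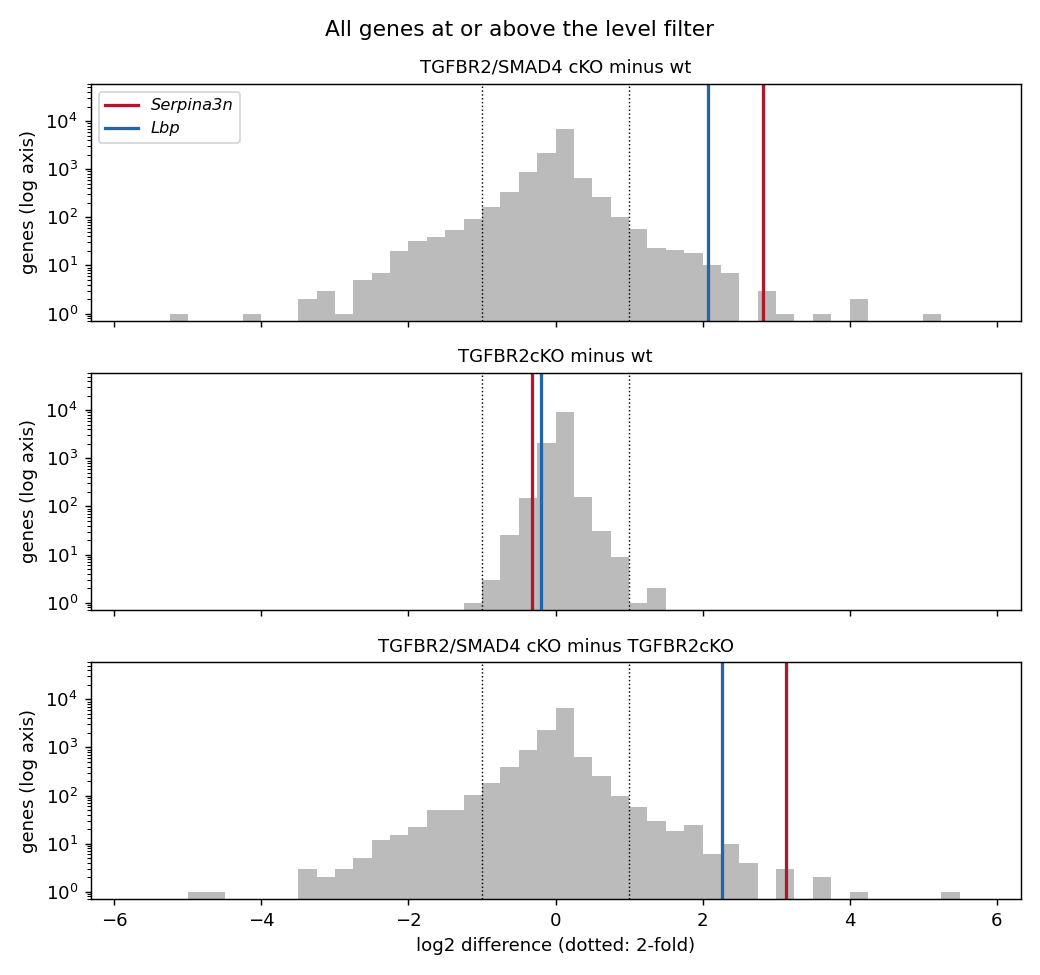
Distribution of log2 differences over 11808 genes in the 3 comparisons, with the number of genes on a log axis, dotted lines at 2-fold and vertical lines for Serpina3n and Lbp. Both lines lie in the right tail of the comparisons that hold the TGFBR2/SMAD4 cKO array and just left of 0 in TGFBR2cKO minus wt.

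The lines differ in more than the labelled genotype. Tgfbr2 had a log2 signal of 10.29 in the TGFBR2/SMAD4 cKO array, 10.25 in the TGFBR2cKO array and 10.25 in the wt array, and Smad4 had 11.04, 11.06 and 11.06, so these whole-transcript values do not show the labelled deletions. Xist, the RNA of the inactive X chromosome, had 9.44 in the TGFBR2/SMAD4 cKO array, 5.35 in the TGFBR2cKO array and 5.33 in the wt array, while the Y-linked Eif2s3y had 5.01, 10.00 and 10.12, so the array in which Serpina3n and Lbp were high was also the one with a female pattern. In TGFBR2/SMAD4 cKO minus wt, both from normal forestomach, genotype, sex pattern and culture cannot be told apart. In TGFBR2cKO minus wt, both with a male pattern, genotype, tissue of origin and culture cannot be told apart, and in TGFBR2/SMAD4 cKO minus TGFBR2cKO none of the 4 can.

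Serpina3n lies in a cluster of related serpin genes on chromosome 12. Of the 8 protein-coding genes before it in the gene table, 7 are Serpina3 genes with no named probe set here, and probes for Serpina3n could in part read such relatives, which was not tested. The eighth, Serpina3b, had a log2 signal of 4.91 in the TGFBR2/SMAD4 cKO array, 4.84 in the TGFBR2cKO array and 4.84 in the wt array, under the filter. The 8 genes after Serpina3n, from Gsc to Tcl1b5, all had values, 4 of them at or above the filter. None was 2-fold different in any comparison. Lbp lies on chromosome 2 beside Bpi, which encodes a related protein of neutrophil granules that kills bacteria, and Bpi had 5.49, 5.34 and 5.34 in the TGFBR2/SMAD4 cKO, TGFBR2cKO and wt arrays. All 16 flanking genes of Lbp had values, 10 at or above the filter, and 0 of them differed 2-fold in any comparison. The furthest from 0 in TGFBR2/SMAD4 cKO minus wt were Fam83d at -0.93 and Nnat at -0.81. Over all genes at or above the filter, at most 1.32% were 2-fold higher and 2.25% lower in any comparison. Finding 0 among these few flanking genes is therefore near the background. The flanking genes were looked up after the values of the 2 genes were seen.

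**Figure D3:**
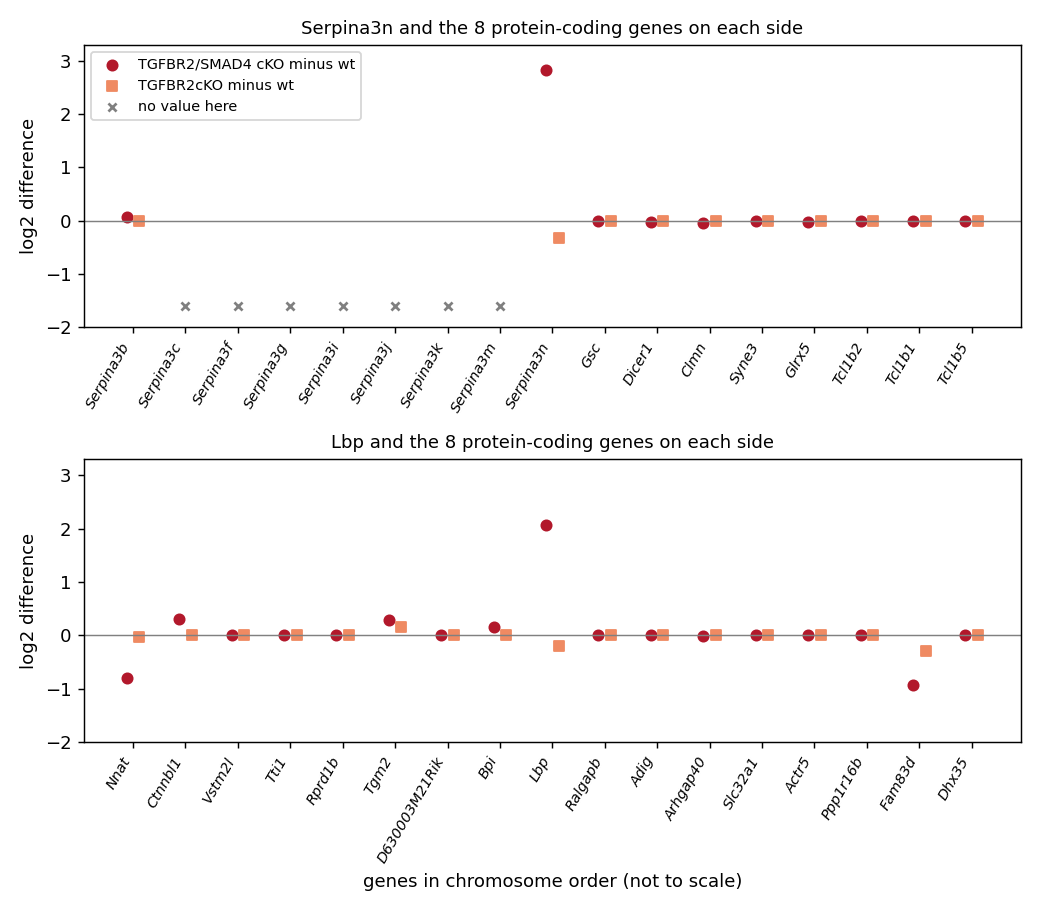
Log2 differences of Serpina3n and Lbp and of the 8 protein-coding genes on each side of them in chromosome order, for TGFBR2/SMAD4 cKO minus wt (circles) and TGFBR2cKO minus wt (squares), with crosses for genes that have no value here. Serpina3n at 2.82 and Lbp at 2.07 stand alone above 1 among their neighbours.

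Family members were followed from lists by name. The other serum amyloid A genes Saa1, Saa2 and Saa4 and the orosomucoids Orm2 and Orm3 were all under the filter, with Saa1 at 3.90 in each array. Of 14 lipocalin genes, 2 passed the filter, and Apod, which encodes the lipid carrier apolipoprotein D, was the 1 that differed 2-fold. Apod had 7.48 in the TGFBR2/SMAD4 cKO array, 9.15 in the TGFBR2cKO array and 7.73 in the wt array. Its difference was 1.43 in TGFBR2cKO minus wt, where 0.0254% of all genes were at least 2-fold higher. It was -1.68 in TGFBR2/SMAD4 cKO minus TGFBR2cKO, where 2.25% were lower, and -0.25 in TGFBR2/SMAD4 cKO minus wt. Apod was thus high in the TGFBR2cKO array, where Serpina3n and Lbp were at their lowest. The relative of Lbp that differed was Pltp, which encodes the phospholipid transfer protein of plasma lipoproteins. Pltp had 11.82 in the TGFBR2/SMAD4 cKO array, 9.49 in the TGFBR2cKO array and 9.57 in the wt array, a 4.74-fold difference between TGFBR2/SMAD4 cKO and wt.

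The serpin genes as a whole, a set taken by symbol after the values were seen, numbered 48, of which 13 passed the filter. Of these, 4 were at least 2-fold higher and 1 lower in TGFBR2/SMAD4 cKO minus wt, where over all genes 1.22% were higher and 2.18% lower. The set holds Serpina3n, and Serpinb10 reached the filter in the TGFBR2/SMAD4 cKO array alone, so nothing is drawn from the count. Besides Serpina3n the higher ones were Serpinb10 at 1.62, Serping1 at 1.54 and Serpinb8 at 1.17, and the lower one was Serpinb9b at -1.05. In TGFBR2/SMAD4 cKO minus TGFBR2cKO, 5 were at least 2-fold higher, the same 4 and Serpini1 at 1.04, and 1 was lower, again Serpinb9b. Over all genes 1.32% were higher and 2.25% lower in that contrast, and nothing is drawn from this count either. In TGFBR2cKO minus wt, 0 of the 13 differed 2-fold, near the 0.0254% higher and 0.00847% lower over all genes.

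A list of 40 other acute-phase plasma proteins held 35 with a value, and 9 passed the filter. In TGFBR2/SMAD4 cKO minus wt, 4 of the 9 were at least 2-fold higher, 1 was lower and the median difference was 0.71, where over all genes 1.22% were higher, 2.18% lower and the median was 0. Of the 9, 2 (C1ra and Steap4) reached the filter in the TGFBR2/SMAD4 cKO array alone, so the difference itself let them in, and nothing about the list is drawn from its count or median. All 4 on the higher side belong to the complement system. So do C4b, which lay under 2-fold, and Mbl2, which was equal in all arrays. C1ra, a protease of the first complement component, had a log2 signal of 7.95 in the TGFBR2/SMAD4 cKO array, 6.11 in the TGFBR2cKO array and 5.97 in the wt array. C1s1, its partner protease, had 11.33 in the TGFBR2/SMAD4 cKO array, 9.44 in the TGFBR2cKO array and 9.46 in the wt array. In both genes the TGFBR2/SMAD4 cKO array stood apart and the other arrays were close.

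Serping1, the serpin that inhibits these proteases, had 12.06 in the TGFBR2/SMAD4 cKO array, 10.79 in the TGFBR2cKO array and 10.52 in the wt array. Cfb, factor B of the alternative pathway, had 8.41 in the TGFBR2/SMAD4 cKO array, 6.85 in the TGFBR2cKO array and 6.86 in the wt array, a 2.92-fold difference from wt. Under 2-fold lay C4b, a complement C4 gene, at 0.71 and Steap4, a metalloreductase gene induced in inflammation, at 0.59. Ptx3, the long pentraxin that fibroblasts and myeloid cells secrete, ran the other way, with 8.73 in the TGFBR2/SMAD4 cKO array, 9.66 in the TGFBR2cKO array and 9.84 in the wt array. The fibrinogen genes, C-reactive protein and the inter-alpha-trypsin inhibitor genes Itih1 to Itih4 were among the 26 under the filter, 16 of which were equal in all arrays. The liver plasma protein genes Mbl2, also of the complement system, and Serpinf2 passed it and were equal in all arrays. In TGFBR2cKO minus wt, 0 of the 9 differed 2-fold and the median was 0, beside 0.0254% higher and 0.00847% lower over all genes. In TGFBR2/SMAD4 cKO minus TGFBR2cKO, 4 were at least 2-fold higher, 0 lower, with a median of 0.59. Over all genes 1.32% were higher and 2.25% lower in that contrast, and nothing is drawn from these counts.

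Of 10 negative acute-phase genes, whose products fall in plasma during the response, 2 passed the filter. Trf, transferrin, had 6.74 in the TGFBR2/SMAD4 cKO array, 7.69 in the TGFBR2cKO array and 7.52 in the wt array, with a difference of -0.78 in TGFBR2/SMAD4 cKO minus wt. Apoa2 had 7.46, 7.49 and 7.46 in the same arrays.

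**Figure D4:**
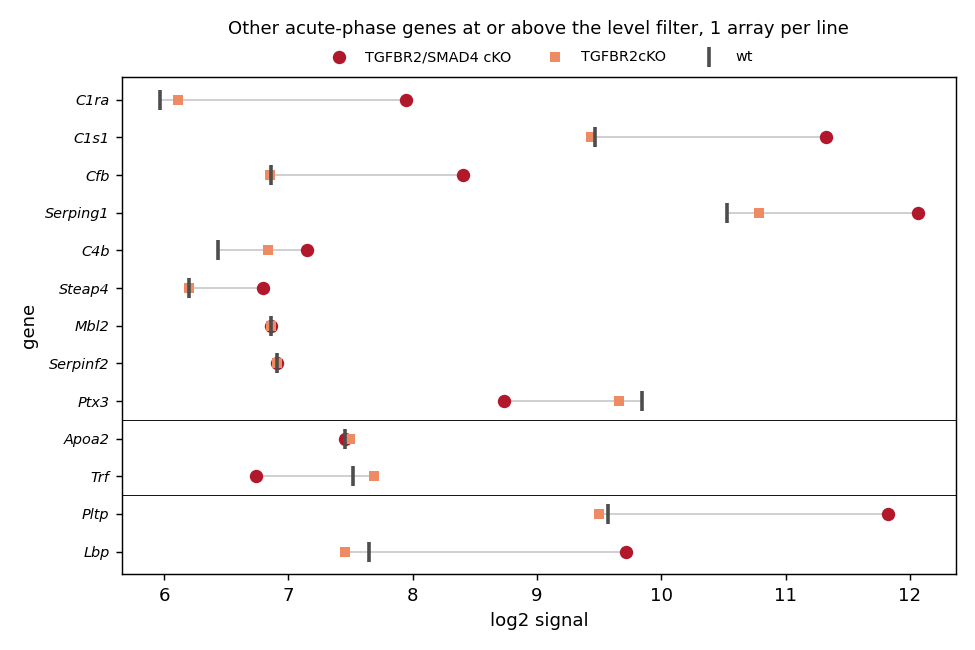
Log2 signal of the other acute-phase plasma proteins (top), the negative acute-phase genes (middle) and Lbp with its relative Pltp (bottom) that passed the level filter, with 1 symbol per array. The circle of the TGFBR2/SMAD4 cKO array lies to the right for C1ra, C1s1, Cfb, Serping1, Pltp and Lbp and to the left for Ptx3 and Trf.

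Cytokines, receptors and transcription factors known to drive an acute-phase response were followed from 4 lists. Of 16 genes of IL-6 type cytokine signalling that passed the filter, 0 were at least 2-fold higher and 1 lower in TGFBR2/SMAD4 cKO minus wt, with a median of 0. With 1.22% of all genes higher and 2.18% lower, 0 higher of 16 is near the background. That one was the cytokine gene Il6 itself, with 6.89 in the TGFBR2/SMAD4 cKO array, 9.88 in the TGFBR2cKO array and 9.17 in the wt array. Il6 was thus lowest where Serpina3n and Lbp were highest. The related cytokine gene Il11 had 7.03 in the TGFBR2/SMAD4 cKO array, 8.39 in the TGFBR2cKO array and 7.60 in the wt array, a difference of -1.36 between TGFBR2/SMAD4 cKO and TGFBR2cKO.

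Receptor genes had differences above 0 and under 2-fold in TGFBR2/SMAD4 cKO minus wt, with Il6ra at 0.53, Lifr at 0.47, Osmr at 0.41 and the shared subunit gene Il6st at 0.23. Stat3, the transcription factor of the pathway, had 11.34 in each array. Its feedback target Socs3 had 7.73 in the TGFBR2/SMAD4 cKO array, 7.60 in the TGFBR2cKO array and 7.58 in the wt array. Transcript levels do not report the phosphorylation through which STAT3 acts.

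Of 16 genes of IL-1, TNF and NF-kappaB signalling that passed the filter, 0 were at least 2-fold higher and 1 lower in TGFBR2/SMAD4 cKO minus wt, with a median of 0, and here too 0 higher is near the 1.22% of all genes (2.18% lower). Il1rap, the accessory subunit of the IL-1 receptor, had 8.31 in the TGFBR2/SMAD4 cKO array, 9.62 in the TGFBR2cKO array and 9.41 in the wt array. The C/EBP factor genes had 0 of 5 different by 2-fold, again near these shares of all genes, with Cebpd furthest from 0 at 0.24. Cebpb had 10.22 in the TGFBR2/SMAD4 cKO array, 10.22 in the TGFBR2cKO array and 10.20 in the wt array.

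Among 11 genes of glucocorticoid reception and response, 3 were at least 2-fold lower and 0 higher in TGFBR2/SMAD4 cKO minus wt, with a median of -0.18, beside 2.18% lower and 1.22% higher over all genes. These were the metallothionein gene Mt2 at -2.20, the immunophilin gene Fkbp5 at -1.14 and Mt1 at -1.06. Metallothioneins also answer to zinc and to cytokines. Fkbp5 had 7.70 in the TGFBR2/SMAD4 cKO array and 8.83 in both other arrays. The receptor gene Nr3c1 was at 0.36. In TGFBR2cKO minus wt, no gene of these 4 regulator lists differed 2-fold, near the 0.0254% higher and 0.00847% lower over all genes.

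**Figure D5:**
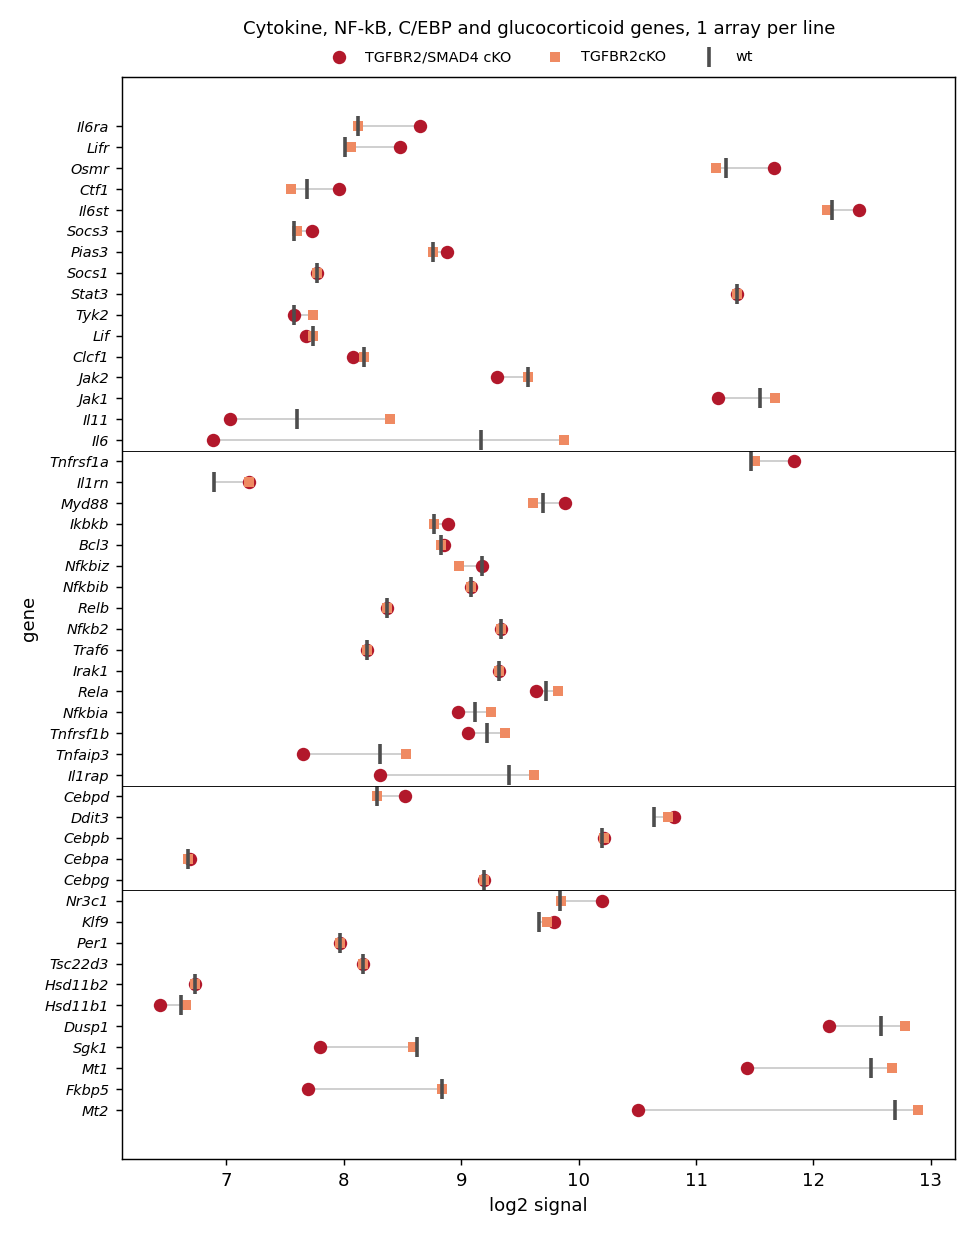
Log2 signal in the 3 arrays of genes for IL-6 type signalling (top), IL-1, TNF and NF-kappaB signalling, C/EBP factors and glucocorticoid response (bottom) that passed the level filter, with blocks parted by lines and 1 symbol per array. Il6, Il1rap, Mt2, Mt1 and Fkbp5 have their TGFBR2/SMAD4 cKO circle well to the left, and no gene has it 2-fold to the right of wt.

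Among receptors and binding partners of the acute-phase proteins, 9 of 16 measured genes passed the filter. Tlr4, the lipopolysaccharide receptor that Lbp serves, had 11.18 in the TGFBR2/SMAD4 cKO array, 10.02 in the TGFBR2cKO array and 10.19 in the wt array. It differed by 0.99 from wt, just under 2-fold, and by 1.16 from TGFBR2cKO. Its partners Cd14 and Ly96 had 7.66 and 8.76 in every array. The Lcn2 receptor gene Slc22a17 differed from wt by 0.02 in the TGFBR2/SMAD4 cKO array and by -0.01 in the TGFBR2cKO array, and the haptoglobin-haemoglobin receptor gene Cd163 was under the filter at 4.81 in each.

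Markers of other cell types that make acute-phase proteins were read as a check. In a bulk culture, fewer cells of a type and less RNA per cell cannot be told apart. Fibroblast markers all passed the filter, 12 of 12, with S100a4 at 12.71 in the TGFBR2/SMAD4 cKO array, 13.16 in the TGFBR2cKO array and 13.18 in the wt array. In TGFBR2/SMAD4 cKO minus wt, 3 of them were at least 2-fold higher, Pdgfra, Lum and Fap, and 1 lower, Thy1 at -2.36, beside 1.22% higher and 2.18% lower over all genes. Fap was under the filter in the wt array, at 6.39. Of 11 neutrophil markers 0 passed the filter, and their summed linear signal was 485 in the TGFBR2/SMAD4 cKO array, 486 in the TGFBR2cKO array and 485 in the wt array. Of 10 measured hepatocyte markers 2 passed, Apoa2 and Hnf4a, albumin was at 4.71 in each array, and the sum was 671, 675 and 671 in the TGFBR2/SMAD4 cKO, TGFBR2cKO and wt arrays.

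Macrophage and leukocyte markers had 3 of 11 above the filter and a summed linear signal of 890 in the TGFBR2/SMAD4 cKO array, 1509 in the TGFBR2cKO array and 1122 in the wt array, led by the lysozyme gene Lyz2. Lyz2 had a log2 signal of 7.75 in the TGFBR2/SMAD4 cKO array, 9.52 in the TGFBR2cKO array and 8.70 in the wt array. Of the 11 markers, 7 were equal in all arrays, among them the general leukocyte gene Ptprc at 5.23, under the filter. Mesothelial markers had 5 of 8 above the filter and sums of 863 in the TGFBR2/SMAD4 cKO array, 1756 in the TGFBR2cKO array and 2311 in the wt array. In TGFBR2/SMAD4 cKO minus wt, 3 of the 5 were at least 2-fold lower, beside 2.18% over all genes. These were Upk1b at -3.48, Krt19 at -1.89 and Upk3b at -1.14. In TGFBR2cKO minus wt, 1 was at least 2-fold lower, Upk3b at -1.07, beside 0.00847% over all genes. Epithelial markers had 4 of 11 above the filter and sums of 872, 1378 and 1275 in the TGFBR2/SMAD4 cKO, TGFBR2cKO and wt arrays. Among them Krt19 was at -1.89 in TGFBR2/SMAD4 cKO minus wt. Krt19 is in both the mesothelial and the epithelial list, and without it, a reckoning added after the values were seen, the epithelial sums were 750.4 in the TGFBR2/SMAD4 cKO array, 770.3 in the TGFBR2cKO array and 822 in the wt array, and the mesothelial sums were 741, 1148 and 1858 in the same arrays. The epithelial genes Epcam, Krt5, Krt14, Krt13 and Krt4 were under the filter and equal in all arrays. Adipocyte markers had 4 of 8 above it and sums of 795, 730 and 765 in the same arrays, with Pparg at 0.61. Of 8 endothelial markers, 1 passed and all were equal in every array. The neutrophil and hepatocyte sums were thus level, but 8 of the 11 neutrophil and 8 of the 10 hepatocyte markers were exactly equal in all arrays. Equal values are common among dim genes here, so these sums cannot show whether the lines differed in such cells. The macrophage sum, mainly through Lyz2, and the mesothelial and epithelial sums, with or without Krt19, were lowest in the array with the highest Serpina3n and Lbp. The part of these cell types in the differences was not tested.

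The genes with the pattern most like each varying gene were found by the Euclidean distance between log2 levels in the 3 arrays, each gene centred on its own mean, among 10570 genes. Closest to Serpina3n were Bmp4, a bone morphogenetic protein gene, at a distance of 0.188, Ecrg4 at 0.235 and Plppr4 at 0.378. Bmp4 had 11.63 in the TGFBR2/SMAD4 cKO array, 8.61 in the TGFBR2cKO array and 8.66 in the wt array. Closest to Lbp were Steap3, a metalloreductase gene of iron uptake, at 0.0697, then Pltp at 0.125 and Fmo1, a flavin monooxygenase gene, at 0.137. Steap3 had 10.51 in the TGFBR2/SMAD4 cKO array, 8.19 in the TGFBR2cKO array and 8.35 in the wt array. Plppr4 had 5.94 in the TGFBR2cKO array and 6.05 in the wt array, and Fmo1 had 6.11 in both, all under the filter. Plppr4 and Fmo1 thus entered the pool by the TGFBR2/SMAD4 cKO array alone, where they were high. With 3 arrays, such likeness rests mainly on the height of the TGFBR2/SMAD4 cKO value.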

How the data were processed

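Total RNA of 3 fibroblast lines was measured on 3 Mouse Gene 1.0 ST arrays from Affymetrix, which per the labels' protocols give values for transcripts and not for exons. The deposited log2 signals were read as such from their range of 2.82 to 15.6. How the authors corrected background and normalized, with which software and on which build, is not given in the sources used here. All 3 array medians lay within 0.00413 of each other and no further scaling was applied, and 0 further columns of per-sample values were present.

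Of 35556 probe sets, 21789 had 1 symbol in the platform annotation, 1621 had several and 12146 were not listed. Symbols of 21698 were updated through a RefSeq gene table (GRCm38.p6, used for names and gene order). The log2 values of a gene's probe sets were averaged. This gave 19938 genes: 11808 reached the median of all values, 6.63, in at least 1 array and 8130 did not. A gene was counted as different at 2-fold or more. No test was made, as each line had 1 array. All 6 acute-phase genes had 1 probe set each.

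The 6 genes and the 22 gene lists were chosen with earlier results of these data known. Named genes were all 6 and the 3 genes nearest in pattern to each acute-phase gene whose range was at least 2-fold. Also named were the members of each list, label checks aside, that passed the filter and differed 2-fold in any comparison. Where none did, members with large differences were named, though not always the 2 largest. Of the label checks, Tgfbr2, Smad4, S100a4, Xist and Eif2s3y were described, and Bmp7, Uty and Kdm5d were not. Other genes were named after their values were seen. Promoter windows were from RefSeq (3 of 6 genes matched). The counting and likeness steps were tested on simulated data with changes larger than the size rule and without the equal values of the real table. That checks the code and says nothing about the genes. Alternatives were median centring, quantile and cyclic loess normalization, the highest or only single probe sets, an offset of 32 on the linear scale, other level filters and size rules. Normalization alternatives were run in limma 3.58.1 (R 4.3.3), and all else in Python 3.11.15 with pandas 2.3.3, numpy 2.4.6 and matplotlib 3.10.9.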

Additional observations from a re-analysis of the deposited data

How the results depend on the processing

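The 6 genes have 1 probe set each, so taking the highest or only single probe sets could not move them. Under the 4 alternatives that could, 70 of 72 differences kept within 0.1 of the deposited value on the log2 scale, and 0 called differences changed sign. The exceptions were both Lbp with 32 added on the linear scale, at 1.91 in TGFBR2/SMAD4 cKO minus wt and 2.08 in TGFBR2/SMAD4 cKO minus TGFBR2cKO. Serpina3n and Lbp were the 2 genes of the 6 at least 2-fold different in both those comparisons, and 0 were in TGFBR2cKO minus wt, under every alternative run, including size rules of 1.5-fold and 3-fold.

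Counts over all genes moved by construction with the filter and the size rule. With the filter at the 75th percentile, TGFBR2/SMAD4 cKO minus wt had 251 genes at least 2-fold different, 147 of them lower, TGFBR2/SMAD4 cKO minus TGFBR2cKO 269, 156 of them lower, and TGFBR2cKO minus wt 2, with 0 lower. At 1.5-fold the counts were 997 (396 higher, 601 lower), 1064 (401 and 663) and 44 (25 and 19) in the same order, and at 3-fold 151 (55 and 96), 161 (61 and 100) and 0 (0 and 0). In TGFBR2cKO minus wt, where 3 genes were higher and 1 lower, 2 were lower after quantile or cyclic loess normalization, and the higher genes made up 60% of those different after cyclic loess, in place of 75%, and with the offset 2 differed in all and 0 were lower. No paired analysis was possible because each group had 1 array. Signal over background limits what can be said of Lcn2, Saa3, Hp and Orm1, which lay under the level filter.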
